A study of Mus musculus with 6 samples.

Results

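The sarcomeric myosins studied here are 10 genes that encode the motor of the muscle thick filament: the heavy chains Myh1, Myh2, Myh3, Myh4, Myh7 and Myh8 and the light chains Myl1, Myl4, Mylpf and Myl6b. They were taken by symbol from a table of 32973 genes, and all 10 had a row. The 6 RNA libraries came from cultured primary muscle stem cells of the mouse, the Pax7-expressing precursors that repair skeletal muscle. The cells had been isolated by fluorescence-activated sorting and grown for 3 days on collagen, in a medium with 20% serum and 5 ng/ml basic fibroblast growth factor. Knockout cells (Med23KO, 3 libraries) were Med23flox/flox::Pax7CreERT2, that is, they carried loxP-flanked Med23 alleles and a Cre recombinase that is driven by Pax7 and needs tamoxifen to act. Control cells (Ctrl, 3 libraries) were Med23flox/flox, with the same alleles and no Cre. The labels give no treatment for either group and no tamoxifen schedule, and no group carried Cre without the loxP-flanked alleles, so effects of Cre and of Med23 loss cannot be told apart. The labels name no separate animals or cultures behind a group's libraries, so each p-value speaks of the spread among these libraries alone, and that spread may be technical.

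A sarcomeric myosin molecule joins heavy chains, which hydrolyse ATP and pull on actin, to essential and regulatory light chains that stiffen and tune the lever arm. Vertebrate muscle carries a family of heavy chain genes used in sequence: Myh3 in the embryo, Myh8 around birth, Myh7 in slow fibres and heart, and Myh2, Myh1 and Myh4 in the adult fast fibre types IIA, IIX and IIB. Proliferating myoblasts make little of these proteins, move on nonmuscle myosins such as Myh9, and switch sarcomeric genes on when they leave the cell cycle under Myog and the MEF2 factors.

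Levels are in FPKM, that is, fragments corrected for the length of the transcript and the size of the library, so levels of different genes can be compared within a library. The read depth of the libraries is unknown, and precision is known only from the 3 libraries of a group. The targeted gene was lower in the knockout: Med23 had 5.10, 5.86 and 4.23 FPKM in the Med23KO libraries, against 10.4, 11.7 and 10.2 FPKM in the Ctrl libraries (log2 fold change -0.96, limma adjusted p = 0.0197). Pax7 was expressed in both groups, between 32.4 and 60.3 FPKM in Med23KO and between 34.5 and 57.7 FPKM in Ctrl. Myod1 lay between 551 and 964 FPKM in Med23KO and between 702 and 1170 FPKM in Ctrl. Of 8 markers of muscle stem cells and myoblasts 8 were tested and 0 were called, where 2.91% of all tested genes were. Their log2 fold changes were above 0 in 5 of 8, where 5566 of all 12336 tested genes were above 0. Itga7 was lower in the knockout with separate groups (log2 fold change -0.74, limma adjusted p = 0.0515). Cdh15 ran higher with overlapping groups (log2 fold change 0.76, adjusted p = 0.168). Genes of differentiating muscle ran from low to well detected. Ckm, the muscle creatine kinase, lay between 0.181 and 0.278 FPKM in Med23KO and between 0 and 0.420 FPKM in Ctrl. Acta1, the skeletal actin, lay between 40.0 and 44.6 FPKM in Med23KO and between 11.6 and 28.7 FPKM in Ctrl.

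Against this background the knockout libraries held more sarcomeric myosin RNA. In bulk RNA, more cells that express these genes and more RNA per cell cannot be told apart. Of the 10 genes, 7 had all Med23KO values above all Ctrl values, where 9.17% of the 20466 genes detected in any library did. The embryonic light chain gene Myl4 was the member that passed the test across all genes, and it rose. Myh1, Myh3, Myl1 and Mylpf had separate groups and missed the threshold, Myh8 and Myh7 had separate groups at levels under the filter, and Myh2, Myh4 and Myl6b overlapped. The test was limma on log2(FPKM + 1) over the 12336 genes that averaged 1 FPKM or more, its p-values adjusted by Benjamini-Hochberg and called under 0.05. Of these genes 2.91% were called in either direction and 1.49% were called higher in Med23KO. Among the members 6 were tested, 1 was called higher and 0 were called lower, and no member had an unadjusted p under 0.05 with a negative fold change. Myh1 entered the test only through its Med23KO level, since its Ctrl mean was under 1 FPKM, so no median over the tested members is given.

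**Figure D1:**
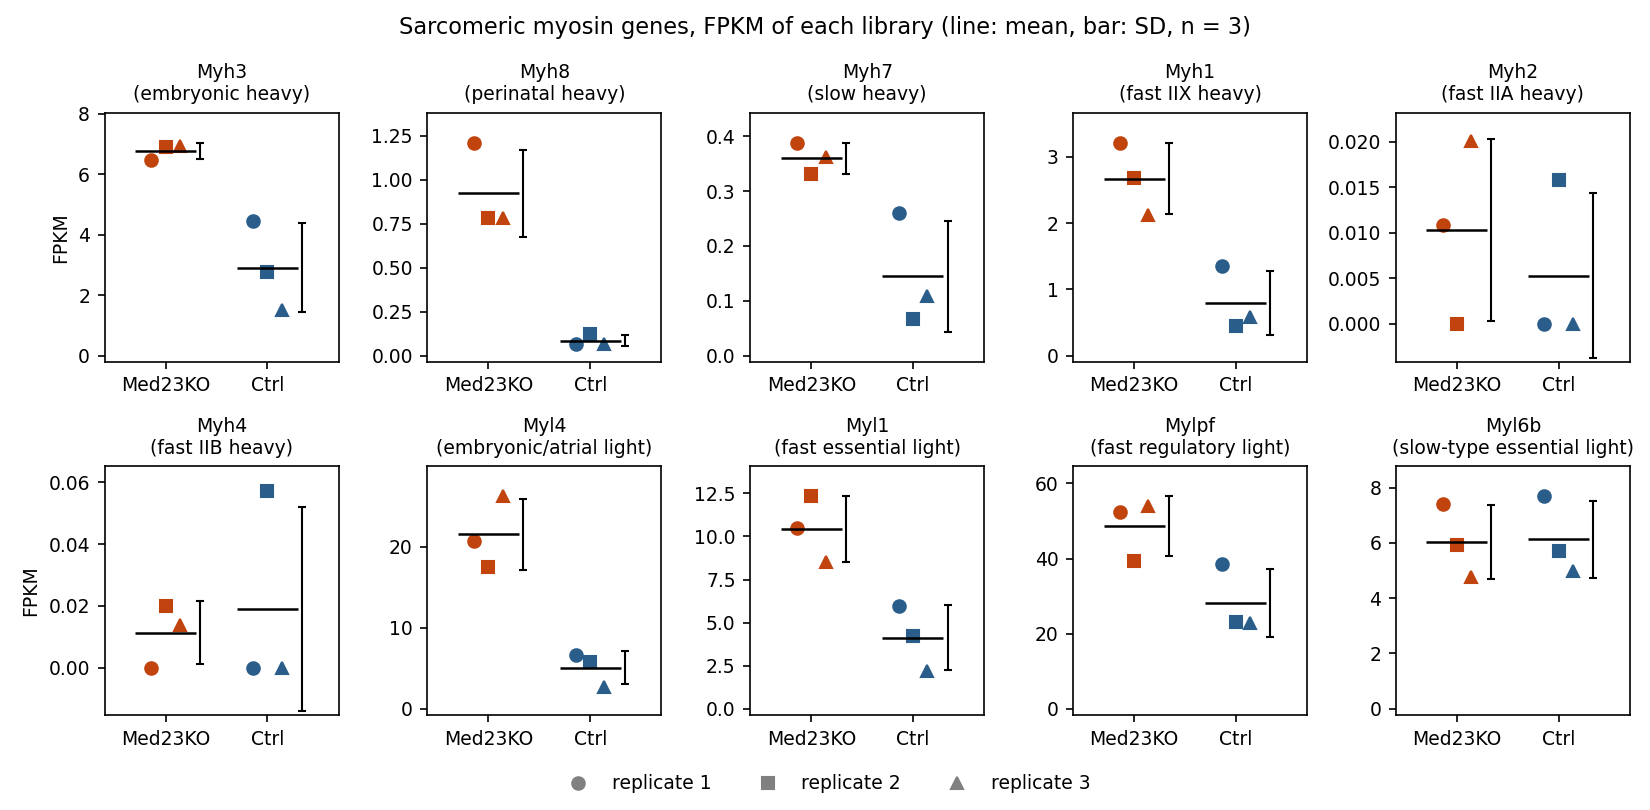
FPKM of the 10 sarcomeric myosin genes in each library, with Med23KO left of Ctrl, on a linear axis of its own for each panel (symbols, replicates; lines, means; bars, SD, n = 3). The groups are separate in Myh3, Myh8, Myh7, Myh1, Myl4, Myl1 and Mylpf and overlap in Myh2, Myh4 and Myl6b.

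Among the heavy chains the embryonic gene Myh3 (ENSMUSG00000020908.14, mm10 chromosome 11, positions 67078300 to 67102291, plus strand) was the most abundant in both groups. Its level was 6.46, 6.90 and 6.95 FPKM across Med23KO replicates 1 to 3, against 4.45, 2.77 and 1.50 FPKM across Ctrl replicates 1 to 3. The knockout values lay close together and above every control value, while the control values were spread widely. Means were 6.77 ± 0.270 FPKM in Med23KO and 2.90 ± 1.48 FPKM in Ctrl (SD, n = 3 each). The log2 fold change was 1.06 (SE 0.260, 95% interval 0.46 to 1.67), and the limma adjusted p of 0.0761 missed the threshold. Of the 6 fits with a library left out, it passed in the fit without Ctrl replicate 1, the highest control (adjusted p = 0.0476, log2 fold change 1.34). In the other fits the limma adjusted p ran from 0.0642 to 0.267, with the lowest log2 fold change, 0.78, without Ctrl replicate 3.

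The perinatal gene Myh8 (ENSMUSG00000055775.16, mm10 chromosome 11, positions 67277124 to 67308634, plus strand) showed the widest relative gap in the family. It had 1.21, 0.783 and 0.779 FPKM in the Med23KO libraries, against 0.0682, 0.121 and 0.0661 FPKM in the Ctrl libraries. All control libraries were close to the bottom of the scale and no knockout library came near them. The mean was 0.924 ± 0.247 FPKM in Med23KO and 0.0850 ± 0.0310 FPKM in Ctrl (SD, n = 3 each), a ratio of 10.9. Its mean over the 6 libraries, 0.504 FPKM, kept it out of the main test. With no filter on low values, limma put Myh8 at 0.82 on the log2 scale (SE 0.0995) with an adjusted p of 0.0379, where 0.357% of 20466 genes were called higher, and the scale of log2(FPKM + 1) compresses the change of so low a gene. That call was lost in each of the 6 fits with a library left out, with adjusted p-values from 0.0525 to 0.209 and log2 fold changes from 0.72 to 0.87. An exact two-sided permutation test of the FPKM returned p = 0.1 for Myh8, which is as low as a design of 3 against 3 can go, and the same for the other members with separate groups.

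Of the adult fast genes, Myh1, the fast IIX chain (ENSMUSG00000056328.14, mm10 chromosome 11, positions 67200052 to 67224575, plus strand), was the detected member. It had 3.21, 2.68 and 2.13 FPKM in the Med23KO libraries, against 1.35, 0.451 and 0.575 FPKM in the Ctrl libraries. The lowest knockout library was above the highest control library. The mean was 2.67 ± 0.540 FPKM in Med23KO and 0.793 ± 0.489 FPKM in Ctrl (SD, n = 3 each), with a log2 fold change of 1.06 (SE 0.221, 95% interval 0.54 to 1.57, limma adjusted p = 0.0522). Myh1 crossed the threshold under some settings and moved away from it under others. The limma adjusted p was 0.0476 without Ctrl replicate 1, 0.0246 without Med23KO replicate 3, 0.0343 with libraries scaled to equal medians and 0.0415 under quantile normalization. It was 0.162 without Med23KO replicate 1, 0.213 without Med23KO replicate 2, 0.200 without Ctrl replicate 2, 0.145 without Ctrl replicate 3, 0.0974 with no filter and 0.0661 with a pseudocount of 0.1. The fast IIA gene Myh2 had 0.0109, 0 and 0.0201 FPKM in the Med23KO libraries and 0, 0.0158 and 0 FPKM in the Ctrl libraries. The fast IIB gene Myh4 had 0, 0.0199 and 0.0140 FPKM in the Med23KO libraries and 0, 0.0572 and 0 FPKM in the Ctrl libraries. Neither gene was above 0.1 FPKM in any library, and a listed 0 can also be a failed estimate, so no fold is given.

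The slow gene Myh7 (mm10 chromosome 14, positions 54970684 to 54994626, minus strand), which the heart also uses, was low in both groups. It had 0.387, 0.330 and 0.362 FPKM in the Med23KO libraries, against 0.259, 0.0669 and 0.109 FPKM in the Ctrl libraries. The groups did not overlap, but Ctrl replicate 1 came near the knockout range. Without the filter it stood at 0.25 on the log2 scale (SE 0.0709), and the limma adjusted p was 0.171.

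Heavy chain genes of the fast and developmental types stand side by side on chromosome 11. From Myh3 to Myh13 the cluster spans 293 kb, in the order Myh3, Myh2, Myh1, Myh4, Myh8 and Myh13, all on the plus strand. The detected genes were not neighbours: Myh2 lies between Myh3 and Myh1 and Myh4 between Myh1 and Myh8, and both were near 0. Myh13, the extraocular muscle gene at the end of the cluster, had a mean of 0.00250 FPKM in Med23KO and 0.0108 FPKM in Ctrl.

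**Figure D2:**
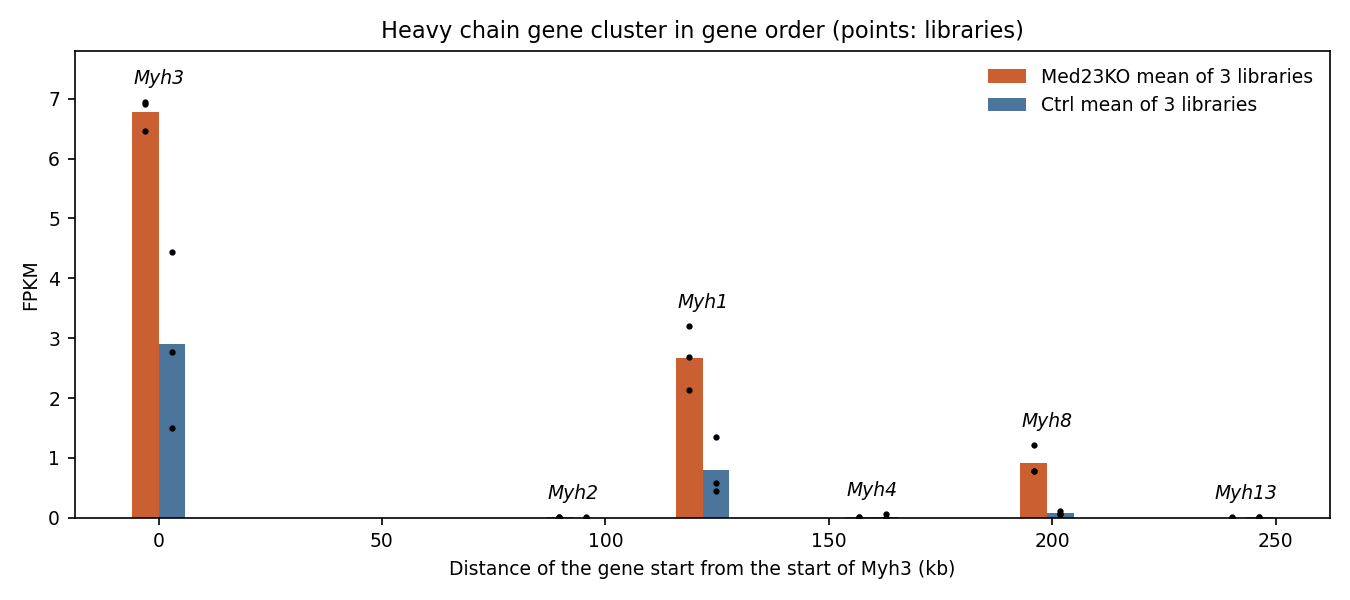
FPKM (linear axis from 0) of the 6 heavy chain genes of the chromosome 11 cluster, placed by the distance in kb of each gene's start from the start of Myh3, with bars for means of 3 libraries (Med23KO left of Ctrl) and points for libraries. Myh3, Myh1 and Myh8 carry the signal, and Myh2, Myh4 and Myh13 between and beyond them stay near 0.

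Near-identical sequence limits how sharply these genes can be told apart. Over aligned coding bases Myh1 was 91.1% identical to Myh2, 90.2% to Myh4 and 89.3% to Myh8, while Myh3 was 81.2% identical to Myh8 and 77.2% to Myh7 (longest coding transcript of each gene in GENCODE vM21). Of the windows of 100 bases in the transcript, 9.73% in Myh1, 6.61% in Myh8 and 1.15% in Myh3 also occurred in another gene. With windows of 50 bases these shares were larger, at 26.7% in Myh1, 21.4% in Myh8 and 4.81% in Myh3. In Myh7, 11.2% of the 100-base windows were shared, all of them with Myh6, and 22.2% of the 50-base windows were shared. Myh6 was at 0 in 5 libraries and at 0.0196 FPKM in Med23KO replicate 2. How the authors' pipeline divided reads that fit several genes is not given in the sources used here, so values of Myh1, Myh2, Myh4 and Myh8 are uncertain to that extent. No window of Myl4 or Mylpf, of either length, occurred elsewhere. The antisense genes Myhas, which overlaps Myh1, Mhrt, which overlaps Myh7, and Gm11665, which overlaps Myl4, were listed at 0 in all 6 libraries. The antisense gene 9430073C21Rik, which overlaps Myh2, had 0.146, 0.0585 and 0.208 FPKM in the Med23KO libraries and 0.211, 0.202 and 0.216 FPKM in the Ctrl libraries, above Myh2 in each. The libraries were strand-specific, but the strand setting of the counting is not stated. Whether the counting kept reads of the 2 genes apart is therefore unknown.

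The make-up of the heavy chain pool moved less than its size. Summed over the 6 genes, heavy chain FPKM was 11.3, 10.7 and 10.3 in the Med23KO libraries, against 6.13, 3.48 and 2.25 in the Ctrl libraries. Myh3 supplied 57.3, 64.4 and 67.8% of that sum in the Med23KO libraries, against 72.6, 79.5 and 66.7% in the Ctrl libraries, with overlapping groups. Myh1 supplied 28.5, 25.0 and 20.8% in the Med23KO libraries, against 22.1, 13.0 and 25.5% in the Ctrl libraries, again overlapping. Myh8 was the exception, with 10.7, 7.30 and 7.60% in the Med23KO libraries, against 1.11, 3.48 and 2.94% in the Ctrl libraries. These groups were separate. The Ctrl shares rest on Myh8 levels of 0.0682, 0.121 and 0.0661 FPKM, close to the bottom of the scale, so their size is uncertain.

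Taken by type, the developmental chains Myh3 and Myh8 together made up 71.7 ± 3.68% of heavy chain FPKM in Med23KO and 75.4 ± 6.87% in Ctrl, the adult fast chains 24.9 ± 3.73% in Med23KO and 20.9 ± 5.34% in Ctrl, and the slow chain 3.35 ± 0.234% in Med23KO and 3.66 ± 1.54% in Ctrl (SD, n = 3 each). Each of these differences was smaller than the spread of the Ctrl libraries. The FPKM ratio of Myh3 to Myh8 was 5.34, 8.82 and 8.92 in the Med23KO libraries, against 65.2, 22.9 and 22.7 in the Ctrl libraries. The Ctrl ratios divide by Myh8 levels of at most 0.121 FPKM, so their size is uncertain. The groups of this ratio did not overlap (mean difference -2.11 on the log2 scale, exact two-sided permutation p = 0.1, and 0.2 when adjusted over 6 ratios of the family). The ratios of Myh3 to Myh7 and of Myh3 to the adult fast sum overlapped between groups, with exact permutation p-values of 0.9 and 0.2 (adjusted 0.9 and 0.24). With 3 libraries a group, none of these tests can reach 0.05.

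**Figure D3:**
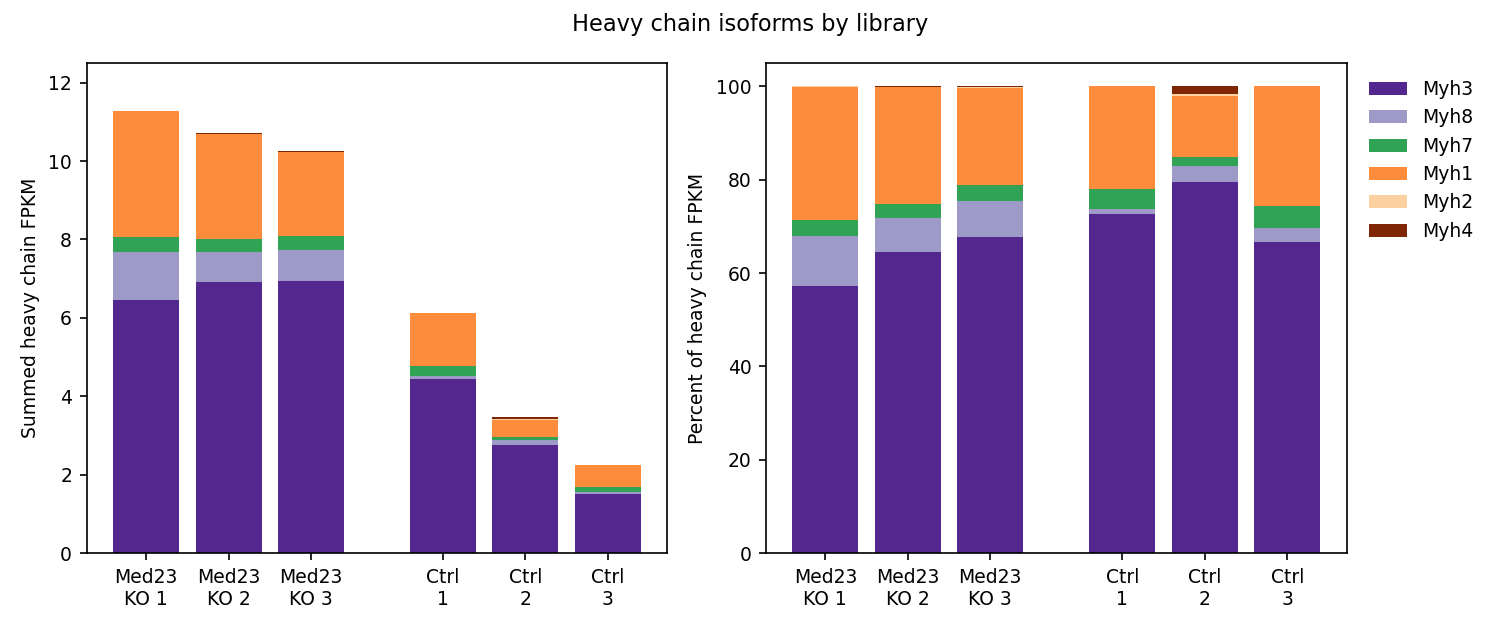
Heavy chain isoforms in each library, Med23KO left of Ctrl, stacked as FPKM (left panel, linear axis from 0) and as the same values in percent of their sum (right panel). The knockout bars stand at 10.3 to 11.3 FPKM and the control bars at 2.25 to 6.13 FPKM, and within the bars the share of Myh8 is larger in each knockout library.

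Sarcomeric chains stayed a small part of all myosin heavy chain RNA. Set beside the nonmuscle chains Myh9, Myh10 and Myh14, the 6 sarcomeric genes made up 4.89, 5.30 and 5.63% of heavy chain FPKM in the Med23KO libraries, against 2.33, 1.58 and 1.02% in the Ctrl libraries, without overlap. Myh9 alone, the main nonmuscle chain, had 174 ± 21.7 FPKM in Med23KO and 210 ± 22.2 FPKM in Ctrl (SD, n = 3 each). Its log2 fold change of -0.28 had an SE of 0.123 and a limma adjusted p of 0.267. Of 8 nonmuscle and smooth muscle myosin genes 7 were tested and 0 were called higher or lower, where 2.91% of all tested genes were. The median of their log2 fold changes was -0.07. Among these, Myh14 had 2.97 ± 1.07 FPKM in Med23KO and 1.12 ± 0.156 FPKM in Ctrl (limma adjusted p = 0.0853), and Myl12b had 12.2 ± 1.41 FPKM in Med23KO and 8.55 ± 0.671 FPKM in Ctrl (adjusted p = 0.0920). Myl9, a regulatory light chain of nonmuscle and smooth muscle myosin, averaged 116 FPKM in Med23KO and 80.2 FPKM in Ctrl (limma adjusted p = 0.149). The smooth muscle chain Myh11 did not exceed 0.370 FPKM in any library.

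Summed light chain FPKM exceeded summed heavy chain FPKM in every library, and Myl4 was the light chain gene that was called. Myl4 (ENSMUSG00000061086.12, mm10 chromosome 11, positions 104550663 to 104595753, plus strand) encodes the essential light chain of embryonic skeletal muscle and of the atria. Its level was 20.7, 17.5 and 26.2 FPKM across Med23KO replicates 1 to 3, against 6.65, 5.74 and 2.74 FPKM across Ctrl replicates 1 to 3. Every knockout value was far above the highest control value. The mean was 21.5 ± 4.40 FPKM in Med23KO and 5.04 ± 2.05 FPKM in Ctrl (SD, n = 3 each), a ratio of 4.26. The log2 fold change was 1.94 (SE 0.276, 95% interval 1.30 to 2.59, limma adjusted p = 0.0197). The call was lost without Med23KO replicate 1 (adjusted p = 0.0679), Med23KO replicate 2 (0.102) or Ctrl replicate 2 (0.103) and with no filter on low values (0.0539), while the log2 fold change ran from 1.63 to 2.15 over all settings run. The atrial partner genes were not detected with it: Myl7 was listed at 0 in all 6 libraries, and Myh6 is described above.

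Myl1 (ENSMUSG00000061816.15, mm10 chromosome 1, positions 66924295 to 66945404, minus strand) encodes the essential light chains of fast fibres. It had 10.5, 12.3 and 8.51 FPKM in the Med23KO libraries, against 5.96, 4.24 and 2.18 FPKM in the Ctrl libraries. The groups were separate. The log2 fold change was 1.22 (SE 0.280, 95% interval 0.56 to 1.87), and the limma adjusted p was 0.0670. It was 0.0318 without Med23KO replicate 3 and 0.0415 under quantile normalization. It was 0.133 with no filter, and in the other 5 fits with a library left out it ran from 0.0626 to 0.262. Of its 100-base windows, 9.36% also occurred in the pseudogene Mylf-ps, and of its 50-base windows 23.4% did.

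Mylpf (ENSMUSG00000030672.12, mm10 chromosome 7, positions 127208890 to 127214298, plus strand), the regulatory light chain of fast fibres, was the most abundant sarcomeric myosin gene in every library. It had 52.4, 39.4 and 54.1 FPKM in the Med23KO libraries, against 38.6, 23.2 and 22.7 FPKM in the Ctrl libraries. The groups were just separate, with Med23KO replicate 2 only slightly above Ctrl replicate 1. The log2 fold change was 0.79 (SE 0.220, 95% interval 0.28 to 1.31, limma adjusted p = 0.104).

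Myl6b, an essential light chain gene that slow fibres and nonmuscle cells use, did not follow the other light chains. It had 7.42, 5.92 and 4.75 FPKM in the Med23KO libraries, against 7.69, 5.71 and 5.00 FPKM in the Ctrl libraries. The groups overlapped almost fully. The log2 fold change of -0.02 had an SE of 0.192 and a limma adjusted p of 0.971, and its 95% interval, -0.47 to 0.43, left out the estimates of Myh1, Myh3, Myl1, Myl4 and Mylpf.

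The light chain pool had a different make-up in the 2 groups. Myl4 made up 22.8, 23.3 and 28.0% of the FPKM of the 4 light chain genes in the Med23KO libraries, against 11.3, 14.7 and 8.39% in the Ctrl libraries. Myl6b made up 8.15, 7.87 and 5.08% in the Med23KO libraries, against 13.1, 14.7 and 15.3% in the Ctrl libraries. Both shares were separate between groups, in opposite directions. The level of Myl6b itself was alike, with means of 6.03 FPKM in Med23KO and 6.13 FPKM in Ctrl. Its share was lower because the light chain sum was larger, with means of 86.6 FPKM in Med23KO and 43.5 FPKM in Ctrl. Myl4 stood above Myl1 in all 6 libraries, with FPKM ratios of 1.98, 1.42 and 3.08 in Med23KO and 1.12, 1.35 and 1.26 in Ctrl. The groups of this ratio were just separate, at 1.42 against 1.35. Tests of these ratios compared Med23KO with Ctrl (Myl4 to Myl1, exact two-sided permutation p = 0.1, adjusted 0.2). The ratio of Myl6b to Myl1 was 0.709, 0.480 and 0.558 in Med23KO and 1.29, 1.35 and 2.30 in Ctrl (exact permutation p = 0.1, adjusted 0.2). Mylpf to Myl1 overlapped (exact permutation p = 0.2, adjusted 0.24).

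In Med23KO the means ran Mylpf, Myl4, Myl1, Myh3, Myl6b, Myh1, Myh8, Myh7, Myh4 and Myh2 from high to low. The libraries of neighbours in that order did not overlap except for Myh3 with Myl6b and Myh4 with Myh2. In Ctrl the order was Mylpf, Myl6b, Myl4, Myl1, Myh3, Myh1, Myh7, Myh8, Myh4 and Myh2. There the ranges of Myl6b and Myl4, Myl4 and Myl1, Myl1 and Myh3, Myh7 and Myh8, and Myh4 and Myh2 overlapped. Light chain FPKM exceeded heavy chain FPKM in sum by ratios of 8.07, 7.02 and 9.12 in the Med23KO libraries, against 9.61, 11.2 and 14.5 in the Ctrl libraries.

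**Figure D4:**
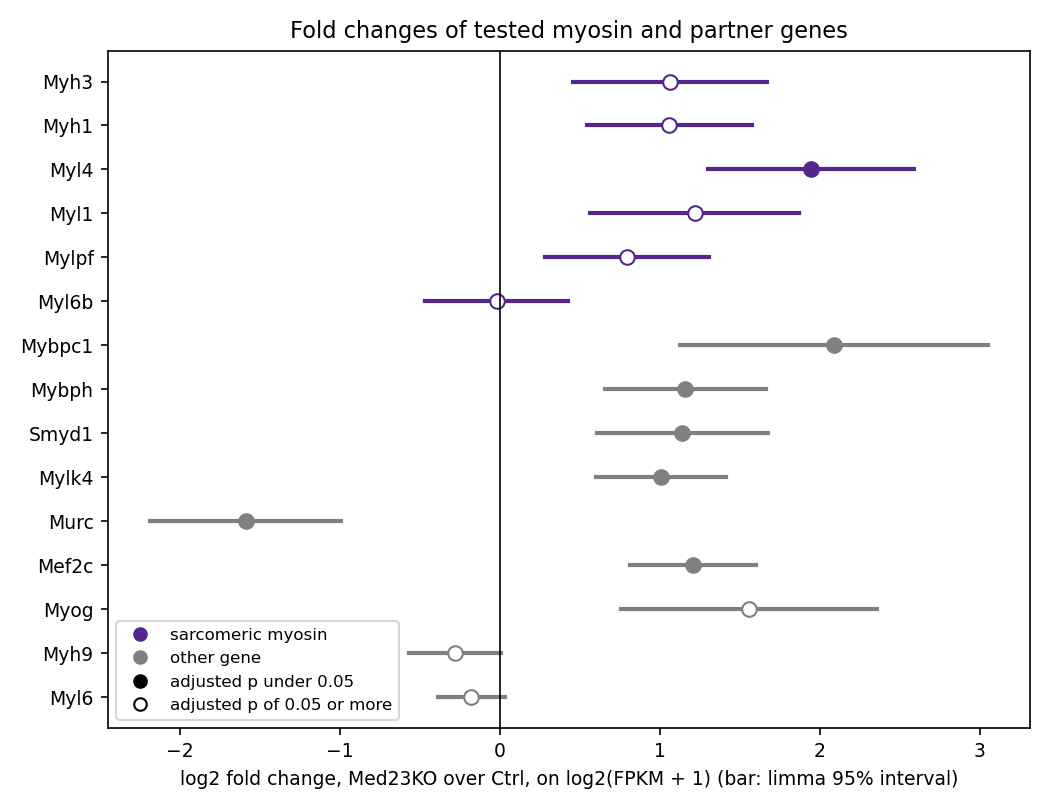
Log2 fold changes of Med23KO over Ctrl on log2(FPKM + 1), with limma 95% intervals, for the 6 tested sarcomeric myosins (purple) and 9 other genes (grey), filled where the adjusted p was under 0.05. Myl4 at 1.94 is the filled myosin, and Myl6b at -0.02 sits on the line of no change.

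Promoter sequence is shown for Myl4, the called member, Myh3, the most abundant heavy chain, and Myh8, the heavy chain with the widest relative gap. Each is the 250 bases before the RefSeq transcript start on the strand of the gene, in build GRCm38.p6: chr11:104550413-104550662 for Myl4, chr11:67078050-67078299 for Myh3 and chr11:67276874-67277123 for Myh8, all on the plus strand. Capitals mark matches to the E-box CANNTG, the site of Myod1 and Myog, and to the MEF2 consensus, on either strand.
Myl4 promoter: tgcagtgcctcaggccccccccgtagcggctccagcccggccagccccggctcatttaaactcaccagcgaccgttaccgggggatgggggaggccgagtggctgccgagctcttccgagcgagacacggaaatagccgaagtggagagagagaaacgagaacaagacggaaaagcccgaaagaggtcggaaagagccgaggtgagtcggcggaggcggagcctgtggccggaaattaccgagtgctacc
Myh3 promoter: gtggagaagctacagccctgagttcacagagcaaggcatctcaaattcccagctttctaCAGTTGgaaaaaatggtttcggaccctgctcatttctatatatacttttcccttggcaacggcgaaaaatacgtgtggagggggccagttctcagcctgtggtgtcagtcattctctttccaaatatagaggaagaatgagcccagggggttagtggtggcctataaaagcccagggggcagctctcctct
Myh8 promoter: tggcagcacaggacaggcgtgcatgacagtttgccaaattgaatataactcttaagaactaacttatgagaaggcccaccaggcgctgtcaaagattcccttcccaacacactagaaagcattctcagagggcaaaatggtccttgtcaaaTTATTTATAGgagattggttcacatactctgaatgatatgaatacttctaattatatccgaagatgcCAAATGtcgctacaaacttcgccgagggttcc

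Myl4 had neither match in this window, Myh3 had an E-box at -191 to -186, and Myh8 had a MEF2 match at -99 to -90 and an E-box at -32 to -27, counted from the transcript start. Over the 10 members, each with its first listed start, 7 windows held an E-box, against 66.2% of 32851 mouse promoters of the same length. The MEF2 consensus was in 3 of 10, Myh1, Myh4 and Myh8, against 2.92% of all. These 3 clustered genes hold the same letters in like sequence, so their matches are not independent counts. The E-box form CAGCTG was in 3 (Myh4, Myl1 and Mylpf), against 13.0% of all, and CATTCC, the MCAT element, in 4, against 12.6%. The CArG box was in 1, Myh4, against 1.47%. TATAAA on either strand was in 5, against 12.4%, and in Myh8 its match lies inside the MEF2 match. A match is a description of these letters, not a bound site.

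The MEF2 matches of the 3 clustered genes were the same 10 letters, which 0.113% of all promoters hold. Stretches of 30 bases around them are shown because Myh8 and Myh1 had separate groups while Myh4 and Myh2 were near 0. They are chr11:67277015-67277044 for Myh8, chr11:67199881-67199910 for Myh1, chr11:67237620-67237649 for Myh4 and chr11:67170849-67170878 for Myh2, in build GRCm38.p6 on the plus strand, with the core in capitals. For Myh2 the stretch is the part of its window most like that of Myh8.
Myh8 stretch: ccttgtcaaaTTATTTATAGgagattggtt
Myh1 stretch: acaactcaaaTTATTTATAGgagattgatt
Myh4 stretch: ccctgtcaaaTTATTTATAGatgacaagaa
Myh2 stretch: tcttctcaaaTTATCCATAGgagatttacc

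The Myh1 and Myh4 stretches shared 25 and 22 of 30 bases with that of Myh8, and their cores were identical to it. Myh2 shared 22 of 30 and differed in the core by T5C and T6C, counted from 1 at its 5′ end with the base of Myh8 first. Identical cores occurred in genes with separate groups and in a gene near 0, and the part of the core in these levels was not tested.

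Of 10 partners of the thick filament 4 were tested, with a median log2 fold change of 1.03 (all tested genes, -0.03). Of the 4, 2 were called higher and 0 lower, where 1.49% of all tested genes were called higher. Mybpc1, the slow-type myosin-binding protein C gene, rose to 9.71 ± 4.33 FPKM in Med23KO, against 1.53 ± 1.21 FPKM in Ctrl (SD, n = 3 each; limma adjusted p = 0.0448). Mybph, the myosin-binding protein H gene, rose to 5.11 ± 0.469 FPKM in Med23KO, against 1.81 ± 0.748 FPKM in Ctrl (adjusted p = 0.0378). Titin, Ttn, had 36.6 ± 10.3 FPKM in Med23KO and 19.2 ± 6.71 FPKM in Ctrl and overlapped (adjusted p = 0.130), and Myom3 overlapped as well (adjusted p = 0.343). Mybpc2, the fast-type gene, was above 0 in Ctrl replicate 2 alone, at 0.0316 FPKM.

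Of 13 genes of myosin assembly and phosphorylation 9 were tested, with a median of -0.20. Of the 9, 2 were called higher and 1 lower, where 2.91% of all tested genes were called in either direction. Smyd1, a muscle methyltransferase needed for thick filament assembly, rose to 30.2 ± 6.69 FPKM in Med23KO, against 13.3 ± 3.70 FPKM in Ctrl (SD, n = 3 each; limma adjusted p = 0.0478). Mylk4, of the myosin light chain kinase family, rose to 5.62 ± 1.29 FPKM in Med23KO, against 2.27 ± 0.406 FPKM in Ctrl (adjusted p = 0.0316). Murc, a muscle caveola gene, fell to 3.90 ± 1.86 FPKM in Med23KO, against 13.3 ± 2.18 FPKM in Ctrl (adjusted p = 0.0271). The skeletal myosin light chain kinase gene Mylk2 had 1.41, 1.60 and 1.26 FPKM in the Med23KO libraries, against 5.84, 4.97 and 2.67 FPKM in the Ctrl libraries, separate groups with the knockout lower (log2 fold change -1.14, adjusted p = 0.0509). The muscle myosin chaperone gene Unc45b, under the filter, had 1.31, 1.32 and 1.02 FPKM in the Med23KO libraries, against 0.421, 0.481 and 0.150 FPKM in the Ctrl libraries. Of the fits with 1 library left out, the calls of Mybpc1, Mybph, Smyd1, Mylk4 and Murc were kept only in the fit without Med23KO replicate 3, with adjusted p-values up to 0.206 in the others.

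Of 15 myogenic regulators 13 were tested, and Mef2c alone was called, higher, where 1.49% of all tested genes were called higher. Mef2c had 3.09, 3.98 and 4.72 FPKM in the Med23KO libraries, against 1.39, 0.989 and 0.994 FPKM in the Ctrl libraries (log2 fold change 1.21, limma adjusted p = 0.0197), a call kept without Med23KO replicate 1, Med23KO replicate 3 or Ctrl replicate 1 and lost without each other library. Myog had 84.5, 89.4 and 76.0 FPKM in the Med23KO libraries, against 43.8, 32.2 and 14.6 FPKM in the Ctrl libraries (adjusted p = 0.0609). Prox1 had 19.8, 17.8 and 8.96 FPKM in the Med23KO libraries, against 6.30, 5.81 and 4.36 FPKM in the Ctrl libraries (adjusted p = 0.0579). Nfatc1 was lower in the knockout with separate groups, with means of 5.78 FPKM in Med23KO and 9.15 FPKM in Ctrl (adjusted p = 0.168). Sox6, under the filter, was higher with separate groups, with means of 1.11 FPKM in Med23KO and 0.631 FPKM in Ctrl. Of the 13 tested log2 fold changes 8 were above 0, where 5566 of all 12336 tested genes were. Pax7 and Myod1 overlapped (adjusted p = 0.944 and 0.607).

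Among the control libraries, 5 of the 10 members (Myh3, Myl1, Myl4, Mylpf and Myl6b) were highest in replicate 1 and lowest in replicate 3. All 6 tested members were highest in Ctrl replicate 1, as were 41.8% of all tested genes, and 5 of 6 were lowest in Ctrl replicate 3, as were 47.1%. The mean centred log2 level of the 6 tested members was 0.59, 0.46 and 0.46 in Med23KO replicates 1, 2 and 3. It was -0.06, -0.54 and -0.91 in Ctrl replicates 1, 2 and 3. Myh1 is among these 6 and passed the filter only through its Med23KO level. The gap between groups in this profile is therefore partly set by the filter. Over the 6 libraries, the genes whose log2 levels followed this profile most closely by Pearson's r were Senp7 (0.992), Srl (0.992), Abcc4 (0.987), Actc1 (0.987) and Myog (0.981). These come from 8530 genes averaging 5 FPKM or more, of which 1.77% had an r over 0.9. The 6 points fall into the 2 groups, so such an r describes the group difference as well as the order within groups. Actc1, the cardiac actin gene of developing muscle, had 60.8, 76.0 and 46.9 FPKM in the Med23KO libraries, against 21.1, 9.77 and 3.98 FPKM in the Ctrl libraries.

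Markers of cell types were read for the same libraries. Of 10 markers of differentiating muscle 9 were tested, and 3 (Actc1, Tnnc1 and Mymx, whose row is named Gm7325) were called higher. Of all tested genes, 1.49% were called higher. With a library left out, Actc1 kept its call in 2 of 6 fits (limma adjusted p up to 0.190), Tnnc1 in 3 (up to 0.128) and Mymx in 1 (up to 0.153). Mymx and Casq2 passed the filter only through their Med23KO levels (Casq2 means, 2.03 FPKM in Med23KO and 0.667 FPKM in Ctrl). Tnnt3 (log2 fold change 0.11) and Atp2a1 (0.57) overlapped between groups. The list summed to 234 to 283 FPKM in Med23KO and 67.2 to 139 FPKM in Ctrl. Markers of fibro-adipogenic progenitors and fibroblasts summed to 250.3 to 409 FPKM in Med23KO and 184 to 260 FPKM in Ctrl. Of their tested log2 fold changes 9 of 9 were above 0 (median 0.56), where 5566 of all 12336 tested genes were. Of these markers 0 were called, and no marker of the list was at 0 in all libraries. Markers of smooth muscle and pericytes summed to 263 to 310.2 FPKM in Med23KO and 152 to 190.2 FPKM in Ctrl, most of it Acta2, which developing muscle also uses. Of these 9 markers 4 were tested, with a median log2 fold change of -0.30. Acta2 alone was above 0, while Cspg4 (-0.58), Notch3 (-0.56) and Pdgfrb (-0.04) were below 0 with overlapping groups. Under the filter, Rgs5 and Abcc9 were higher in the knockout with separate groups. Acta2 was called higher, where 1.49% of all tested genes were. That call was lost in 3 of the 6 fits with a library left out, without Med23KO replicate 1, Med23KO replicate 2 or Ctrl replicate 2 (limma adjusted p up to 0.09998). Endothelial markers summed to at most 7.25 FPKM in Med23KO and 10.7 FPKM in Ctrl, and leukocyte markers to at most 4.68 FPKM in Med23KO and 5.28 FPKM in Ctrl. Heart markers summed to 28.0 to 55.9 FPKM in Med23KO and 38.8 to 61.6 FPKM in Ctrl, nearly all of it Tnnt2, with Myl7 and Nppa at 0 in all libraries. The part of these other cells in the myosin values was not tested.

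The authors' deposited table, made with Cuffdiff, called 6 members higher at q under 0.05: Myh1, Myh3, Myh8, Myl1, Myl4 and Mylpf. The deposited q-value was 0.000695 for each. That table called 8.61% of the 13123 genes it tested higher in the knockout, and it listed Myl6b with q = 0.975 and left Myh2, Myh4 and Myh7 untested.

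The count of members called depended on the setting, as did the share of all genes called higher. It was 1 with a pseudocount of 0.1 (1.45% of all tested genes called higher) and with a filter at 5 FPKM (1.54%). With no filter on low values it was also 1 (0.357%), with Myh8 called and the call of Myl4 lost. The counts below of 2 or more each include Myh1, which passed the filter only through its Med23KO level. The count was 3 under quantile normalization (2.42%) and median scaling (2.85%), 2 without a mean-variance trend (1.38%), 5 with library weights (6.89%) and 5 with a replicate block (9.57%). Leaving out a library gave 0 without Med23KO replicate 1 (0.130%), 0 without Med23KO replicate 2 (0.0243%) and 3 without Med23KO replicate 3 (6.07%). It gave 3 without Ctrl replicate 1 (0.381%), 0 without Ctrl replicate 2 (0.0486%) and 1 without Ctrl replicate 3 (0.211%).

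Of the 8 sarcomeric and striated myosin genes outside this group, Myh6, Myh7b, Myh13, Myh15, Myl2, Myl3, Myl7 and Myl10, 0 reached the filter. Their sum ran from 0.0970 to 0.521 FPKM in Med23KO and from 0.0172 to 0.0506 FPKM in Ctrl. Myh15 had 0.0807, 0.237 and 0.0895 FPKM in the Med23KO libraries, against 0, 0 and 0.0130 FPKM in the Ctrl libraries, levels too low to read further.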

How the data were processed

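RNA from 6 libraries was sequenced from poly(A)-selected, strand-specific libraries, per the labels' protocols. Per the submitters' processing notes, FastQC, cutadapt, STAR, Cuffdiff and the mm10 build were used, while versions, annotation and strand setting are not stated in any source used. The deposited per-library FPKM, which the authors made with Cuffdiff, and the deposited q-values of the authors' Cuffdiff comparison were used. Library columns were matched to samples by title. All 10 members were found by symbol, and of 12368 rows with an Ensembl identifier alone, 12316 were named from GENCODE vM21 and 0 were members.

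Values were taken as log2(FPKM + 1), genes averaging 1 FPKM or more were kept, and genotype was tested with limma 3.58.1 in R 4.3.3 (mean-variance trend, two-sided, Benjamini-Hochberg adjustment, threshold 0.05). The code was tested on simulated data. Ratios and single values used exact permutation tests (scipy 1.17.1). No label says that replicate numbers pair the libraries, so the main fit has no block. Deviations of same-numbered libraries did not correlate in all 3 pairs, which does not settle whether libraries were paired. Named genes were the members, Med23, Myog, Myod1, Mef2c, Pax7, called or top genes of each list, and the 5 genes most like the members; Ckm, Myh11, Mybpc2, Unc45b, Mylk2, Prox1, Ttn, Myom3, Myh15, Tnnt2 and others outside this rule were named after their values were seen. The members and lists were chosen with earlier results of these data known. Protein sequences were not used here, and coding sequence was compared in place of the protein identity first planned.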

Additional observations from a re-analysis of the deposited data

How the results depend on the processing

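The count of sarcomeric myosins called higher was 1 in the main test and 0 to 3 with a library left out. It was 0 without Med23KO replicate 1, Med23KO replicate 2 or Ctrl replicate 2, and 3 without Med23KO replicate 3 or Ctrl replicate 1. Of all tested genes, 1.49% were called higher in the main test and 0.0243% to 6.07% with a library left out. The member count was 3 under quantile normalization (2.42% of all tested genes) and median scaling (2.85%), and 2 without a mean-variance trend (1.38%). With library weights, whose estimation stopped short of its tolerance, it was 5 (6.89%), and by the authors' deposited q-values 6 (8.61%). With no filter on low values it was 1 (0.357%), and that call was Myh8. Under any of these settings, 0 members were called lower. Myh1 is among the calls in each limma fit with 2 or more, and it passed the filter only through its Med23KO level. Over all genes, 184 were called higher and 175 lower. With no filter on low values there were 73 and 84, with library weights 850 and 850, and by the authors' deposited q-values 1130 and 924. The higher count was 298 under quantile normalization and 351 under median scaling, which moved the share of higher calls. With a library left out the higher count ran from 3 to 749 and the lower count from 10 to 395. A replicate block gave 1180 higher and 1577 lower and 5 members higher. The replicate numbers share no stated source, so the block fit is not taken as a paired result. Deviations of same-numbered libraries correlated at 0.44, -0.02 and 0.56. Ctrl replicate 2 was near 0 with Med23KO replicates 1, 2 and 3 (-0.04, -0.02 and 0.04). Ctrl replicate 1 correlated at 0.34 with Med23KO replicate 2 and at -0.57 with Med23KO replicate 3. These values do not settle whether libraries were paired. The fold change of Myl6b changed sign to 0.0016 under median scaling, 0.13 with library weights, 0.11 without Med23KO replicate 3 and 0.13 without Ctrl replicate 1, and with a library left out it ran from -0.16 to 0.13. Fold changes of Myh1, Myh3, Myl1, Myl4 and Mylpf stayed above 0 under each setting that tested them, and the filter at 5 FPKM did not test Myh1 or Myh3. The causes of these differences were not tested. The fits of Myh8 without the filter and with a library left out were chosen after seeing the data. Depth is unknown, so genes near 0 FPKM cannot be bounded.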
